A study of Mus musculus with 23 samples.

Results

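The Nudix hydrolase genes Nudt19 and Nudt3 were followed across arrays of the nucleus accumbens, a ventral striatal region with dense dopamine input, from mice of selected lines. Both were selected on these data, Nudt19 for its difference between the lines and Nudt3 for its differences after methamphetamine, which had opposite signs in the lines. Those differences are therefore described with their errors and without a test. They are 2 of 8251 genes measured, and each was represented by 1 of the 12488 probe sets of the array. The founders of the short-term selected lines came from C57BL/6J x DBA/2J stock, and breeding favoured strong acute responders to methamphetamine in HMACT and weak ones in LMACT. Methamphetamine is a stimulant drug that drives dopamine release. Mice of both lines were injected with methamphetamine at 2 mg/kg or with saline, a dose of 0 mg/kg, and were killed 1 hour after the injection. The 23 arrays comprised 6 of HMACT after methamphetamine, 6 of HMACT after saline, 5 of LMACT after methamphetamine and 6 of LMACT after saline. Each array measured tissue described as a 4-way pool, and how animals were divided among pools is not given in the labels. Spread and p-values therefore refer to these pools.

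Nudix hydrolases share a catalytic motif and split substrates in which a nucleoside diphosphate, or a similar diphosphate, is linked to another group. NUDT19 is a peroxisomal enzyme, studied mainly in mouse kidney, that splits coenzyme A and its acyl esters and so takes part in the turnover of the peroxisomal coenzyme A pool. NUDT3, also called diphosphoinositol polyphosphate phosphohydrolase 1, removes a phosphate from inositol pyrophosphates, which act as signalling molecules in cells. It can also remove the cap of messenger RNAs.

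Nudt19 lies on mouse chromosome 7 and Nudt3 on chromosome 17. The start of each gene is shown because the values below are transcript levels of these genes, and the lines descend from strains that can differ in sequence there. Each window runs from 250 bases before to 50 bases after a start annotated by RefSeq on GRCm38.p6, 5′ to 3′ on the minus strand of that reference, at chr7:35555879-35556178 for Nudt19 and chr17:27623403-27623702 for Nudt3. Capitals mark matches to 6 motifs searched on both strands.
Nudt19: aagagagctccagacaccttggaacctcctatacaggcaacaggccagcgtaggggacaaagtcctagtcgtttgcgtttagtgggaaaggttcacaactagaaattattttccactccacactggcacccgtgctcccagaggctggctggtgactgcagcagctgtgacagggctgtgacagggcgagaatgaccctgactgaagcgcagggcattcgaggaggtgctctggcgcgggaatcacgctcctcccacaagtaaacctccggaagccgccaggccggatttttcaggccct
Nudt3: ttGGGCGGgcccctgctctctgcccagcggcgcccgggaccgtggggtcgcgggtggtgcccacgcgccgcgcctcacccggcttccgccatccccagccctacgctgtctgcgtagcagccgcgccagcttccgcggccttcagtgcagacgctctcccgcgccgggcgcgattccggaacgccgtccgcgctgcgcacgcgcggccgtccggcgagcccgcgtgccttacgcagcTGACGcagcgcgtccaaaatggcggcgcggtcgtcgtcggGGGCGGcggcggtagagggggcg
The Nudt19 window was 57% G and C and held none of the 6 motifs. The Nudt3 window was 77% G and C and held the GC box GGGCGG at 2 places and the core of the cyclic AMP response element, TGACG, at 1 place, with no overlap between them. RefSeq lists a further Nudt3 start, whose window at chr17:27622915-27623214 on the same strand was 74.7% G and C and held none of the 6 motifs. Of 32851 RefSeq promoter windows of the same length, 35.7% held GGGCGG and 20.8% held TGACG. The other motifs were the TATA box TATAAA, in 13.6% of windows, CCAAT in 37.4%, the AP-1 element TGANTCA in 7.81% and the E-box CACGTG in 7.15%. A match describes these letters only. The sequences of the mice in the pools and of the array probes were not analysed here.

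Some features of the arrays bear on both genes. The pools were older in HMACT than in LMACT, with mean ages of 115 ± 34.9 days (SD, n = 12) in HMACT and 76.6 ± 22.5 days (SD, n = 11) in LMACT. The arrays came from a chip lot of 15 arrays and from a pair of smaller lots counted as 4 arrays, each with 1 array of each group. The last of these was joined here from a labelled lot of 3 arrays and a lot of 1. The lot of 1 was replicate 4 of LMACT after methamphetamine, whose lot number differs from that of the 3 in 1 digit. On the main axis of variation within groups, 4 arrays stood apart, with scores of 41.8 to 65.0, against -22.8 to 23.8 on the others. They were replicate 3 of HMACT after methamphetamine, replicates 3 and 5 of HMACT after saline, and replicate 4 of LMACT after methamphetamine. Of the markers of striatal projection neurons 6 of 8 on the array were above the floor, while Chrm4 and Rgs9 were at the floor. Their summed level was 53.5 to 58.9 in HMACT and 55.6 to 57.6 in LMACT. As 6 of 8 oligodendrocyte and 6 of 8 microglia markers were also above the floor, this count does not test the labelled tissue. In tissue pools, fewer cells of a type and less RNA per cell cannot be told apart.

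Nudt19, the coenzyme A hydrolase, was lower in HMACT than in LMACT, and this is the difference for which the gene was chosen. Its deposited log2 expression values in HMACT after methamphetamine were 7.44, 7.02, 7.13, 6.84, 6.72 and 6.10 in replicates 1 to 6. HMACT after saline gave 5.94, 6.98, 6.61, 8.58, 8.47 and 5.75 in replicates 1 to 6. The methamphetamine group of HMACT was narrow, while the saline group was split, with replicates 4 and 5 far above the other 4 arrays. In LMACT after methamphetamine the values of Nudt19 were 8.88, 8.92, 9.25, 9.73 and 8.83 in replicates 2 to 6. In LMACT after saline they were 9.19, 9.35, 8.75, 8.95, 9.02 and 8.43 in replicates 1 to 6. The lines therefore overlapped only through those HMACT saline arrays: 10 of 12 HMACT arrays lay below every LMACT array, the highest HMACT value was 8.58 and the lowest LMACT value 8.43.

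**Figure D1:**
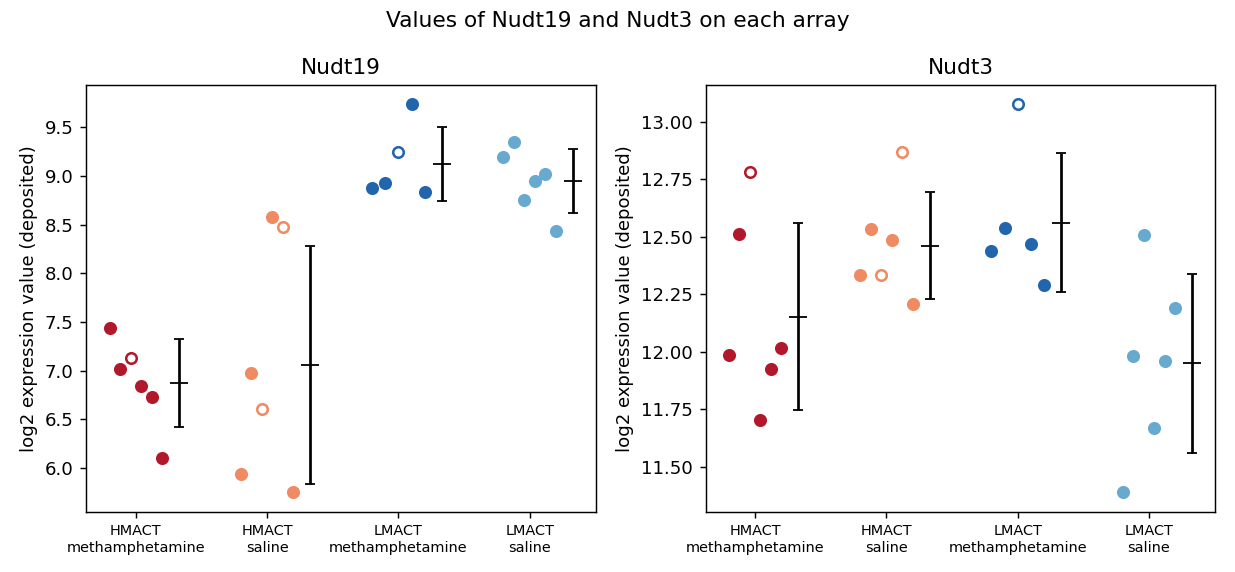
Deposited log2 expression values of Nudt19 (left) and Nudt3 (right) on each of the 23 arrays, by group. Points are arrays in order of replicate number, open points are the 4 arrays that stood apart, and bars give the mean ± SD of each group; Nudt19 is low in HMACT except on 2 saline arrays, and Nudt3 is highest on 3 open points.

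As group means, Nudt19 was at 6.88 ± 0.45 in HMACT after methamphetamine (SD, n = 6) and 7.06 ± 1.22 in HMACT after saline (SD, n = 6). LMACT after methamphetamine was at 9.12 ± 0.38 (SD, n = 5) and LMACT after saline at 8.95 ± 0.33 (SD, n = 6). The levels of Nudt19 thus ordered as LMACT after methamphetamine, LMACT after saline, HMACT after saline and HMACT after methamphetamine, and neighbours of the same line in that order differed by less than their SD. The difference of HMACT minus LMACT, averaged over both injections, was -2.07 (SE 0.29) on the log2 scale, or 4.19-fold lower in HMACT. It was -2.25 (SE 0.43) after methamphetamine and -1.89 (SE 0.41) after saline. In this comparison limma called 16 genes, 0.194% of the 8251 tested, 11 higher and 5 lower in HMACT, and nothing is read from the place of Nudt19 among them. An unadjusted p under 0.05 was found for 1045 of the 8251 genes, and 3220 of the 6162 genes above the floor had positive differences; counts of other genes between the lines below are to be read against these. Complete separation of the lines was found for 2 genes, 0.0242% of those tested, and Nudt19 was not one of them.

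The Nudt19 difference had the same sign in every subset of arrays examined. It was -2.38 within the largest chip lot, where the groups held 3 or 4 arrays each. In the other lots, with 1 array per group, it was -1.40 and, in the lot joined as described above, -1.50. Both high HMACT saline arrays lay in these smaller lots, 1 in each: the same-lot HMACT methamphetamine arrays had 6.84 and 6.72 and the LMACT saline arrays 9.35 and 8.95. Among pools under 100 days of age the Nudt19 difference was -2.04, and among those over 100 days, with 6 HMACT and 2 LMACT arrays, it was -1.78. Without the 4 arrays that stood apart it was -2.20. The value without them was thus larger, and 1 of the high HMACT saline arrays, replicate 5, was among them.

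Cell type markers and a sign of RNA integrity were also described by line. Of 8 oligodendrocyte markers on the array, 6 were above the floor and all 6 had negative differences of HMACT minus LMACT, with a median of -0.32. limma called 0 of them and 3 had an unadjusted p under 0.05, as had 1045 of all 8251 genes. Mag and Mog were called with the array score as a covariate. Mobp was called with chip lot as a covariate and without replicate 4 of LMACT after methamphetamine, and 3 markers were called with array weights. Over all 8251 genes limma called 830 with array weights and 76 without that replicate, against 16 in the main fit. Their summed level ran from 49.5 to 57.6 in HMACT and from 54.5 to 60.1 in LMACT, and the defining markers Cnp and Ugt8a were at the floor on every array. Of 8 microglia markers 6 were above the floor, 4 with positive and 2 with negative differences, and limma called 0. Their median was 0.38, or -0.08 with mean age as a covariate, where oligodendrocyte markers had -0.45. Medians were -0.18 for striatal projection neuron, -0.03 for astrocyte, 0.07 for choroid plexus and ependymal and -0.00084 for endothelial markers. The difference between 3′ and 5′ probe sets of control transcripts, a sign of RNA integrity, was 2.23 ± 0.44 in HMACT (SD, n = 12) and 2.74 ± 0.63 in LMACT (SD, n = 11). Replicate 5 of LMACT after methamphetamine had 4.57, against 2.26 to 2.79 on the other LMACT arrays. It also had the highest Nudt19 value of all arrays, 9.73, and without it the Nudt19 line difference was -1.99. The part of these measures and of pool age in the Nudt19 difference was not tested.

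Methamphetamine did not move Nudt19 past the threshold in these pools. Averaged over the lines, the difference of methamphetamine minus saline was -0.0011 (SE 0.29, 95% interval -0.62 to 0.61, limma, adjusted p = 1). Within HMACT it was -0.18 (SE 0.41) and within LMACT 0.18 (SE 0.43). The difference between these effects, HMACT minus LMACT, was -0.35 (SE 0.59, 95% interval -1.59 to 0.88, limma, adjusted p = 0.932). The intervals allow a change of Nudt19 in either direction, and the value moved with the arrays used. In the largest chip lot, which lacks both high HMACT saline arrays, the mean effect of methamphetamine on Nudt19 was 0.46 and the effect in HMACT 0.60. In pools under 100 days of age, which hold both, the mean effect was -0.45 and the effect in HMACT -1.04. In the whole table limma called 2 genes for the mean effect, 0.0242% of those tested, with 124 at an unadjusted p under 0.05. For the difference of effects it called 0 of 8251 genes, a share of 0%, with 216 at an unadjusted p under 0.05.

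Nudt3, the inositol pyrophosphate hydrolase, was higher after methamphetamine than after saline in LMACT and lower in HMACT. These opposite differences are the ones the gene was chosen for. In HMACT after methamphetamine its log2 expression values were 11.98, 12.51, 12.78, 11.70, 11.92 and 12.02 in replicates 1 to 6. HMACT after saline gave 12.33, 12.54, 12.33, 12.49, 12.87 and 12.21. These groups overlapped, since 4 of 6 methamphetamine arrays lay below the lowest saline array while replicates 2 and 3 lay above the saline mean. In LMACT after methamphetamine Nudt3 had 12.44, 12.54, 13.07, 12.47 and 12.29 in replicates 2 to 6. In LMACT after saline the values were 11.39, 11.98, 12.51, 11.67, 11.96 and 12.19 in replicates 1 to 6. All 5 methamphetamine arrays of LMACT lay above the saline mean, and 5 of 6 saline arrays lay below the lowest methamphetamine array, replicate 3 being the exception.

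Nudt3 averaged 12.15 ± 0.41 in HMACT after methamphetamine and 12.46 ± 0.23 in HMACT after saline (SD, n = 6 each). The difference was -0.31 (SE 0.20) on the log2 scale, or 1.24-fold lower after methamphetamine. In LMACT it averaged 12.56 ± 0.30 after methamphetamine (SD, n = 5) and 11.95 ± 0.39 after saline (SD, n = 6), a difference of 0.61 (SE 0.20) or 1.53-fold higher after methamphetamine. The effect in HMACT minus that in LMACT was -0.92 (SE 0.28). Ordered by level, LMACT after methamphetamine came first, then HMACT after saline, HMACT after methamphetamine and LMACT after saline, and each step between neighbours in that order was smaller than the larger of their SDs.

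The size of the Nudt3 differences varied with the arrays used. In the largest chip lot the difference after methamphetamine was -0.03 in HMACT and 0.42 in LMACT. In the second lot, with 1 array per group, it was -0.78 in HMACT and 0.46 in LMACT. The remaining lot, joined as described above and also with 1 array per group, gave -0.95 in HMACT and 1.41 in LMACT. Its LMACT methamphetamine array is the one with the differing lot number. That array and the HMACT saline array of this lot were both among the arrays that stood apart. The negative difference of HMACT was thus near 0 in the lot that held 8 of its 12 arrays. By age, pools under 100 days gave -0.64 in HMACT and 0.73 in LMACT. Pools over 100 days gave 0.02 in HMACT and 0.10 in LMACT, with 1 LMACT array per injection.

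**Figure D2:**
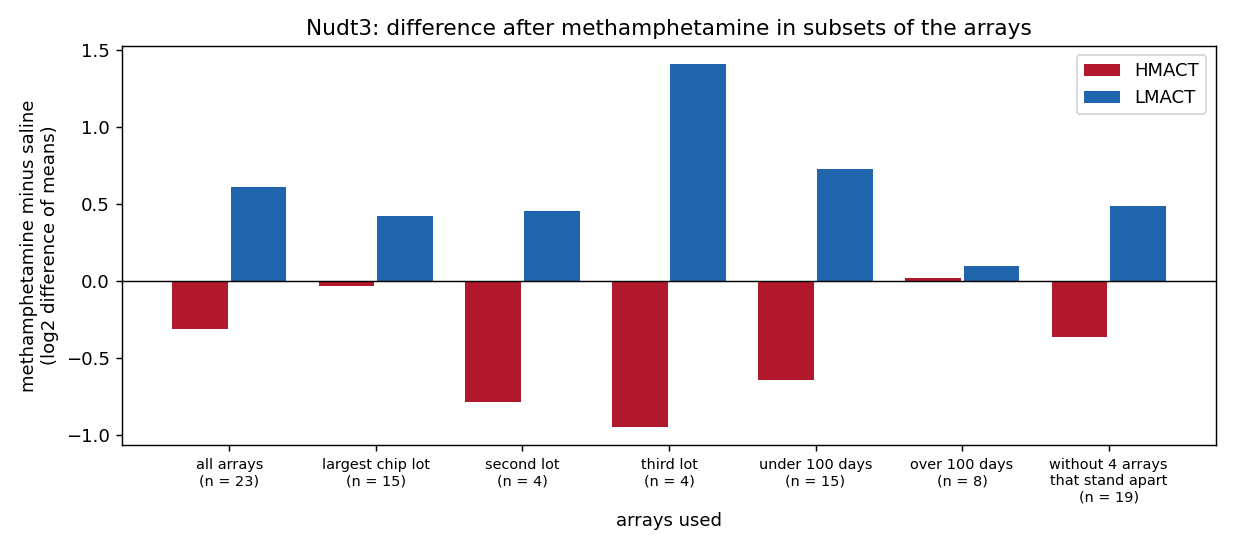
Difference of methamphetamine minus saline for Nudt3, as the log2 difference of group means, in HMACT and LMACT for all arrays and for 6 subsets of them; n is the number of arrays, and no error bars are drawn because some subsets hold 1 array per group. The LMACT bars are all above 0, and the HMACT bars run from -0.95 in the joined lot of 4 arrays to 0.02 in pools over 100 days.

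The 3 highest Nudt3 values of all 23 arrays, 13.07, 12.87 and 12.78, came from 3 of the 4 arrays that stood apart. Without these 4 arrays the difference after methamphetamine was -0.36 in HMACT and 0.48 in LMACT, and the effect in HMACT minus that in LMACT was -0.85. With the array score as a covariate the same contrast was -0.70. Over the 23 arrays, deviations of Nudt3 from its group means had a Pearson r of 0.57 with the array score, and those of Nudt19 one of 0.29. The score itself was not centred by group.

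Averaged over the injections, Nudt3 did not pass the test between the lines, a comparison its choice did not use. It averaged 12.31 ± 0.35 in HMACT (SD, n = 12) and 12.23 ± 0.46 in LMACT (SD, n = 11). The difference of HMACT minus LMACT was 0.05 (SE 0.14, 95% interval -0.24 to 0.35, limma, adjusted p = 0.964). This mean joined unlike values, -0.41 (SE 0.20) after methamphetamine and 0.51 (SE 0.20) after saline, which follow from the values that chose the gene.

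Since age differed between the lines, older pools (over 100 days) were compared with younger pools within HMACT, where each age class held 3 methamphetamine and 3 saline arrays. Age was joined to chip lot here: all older HMACT pools were in the largest lot, but only replicate 6 of each injection among the younger ones. The comparison therefore cannot separate age from lot. Nudt19 was at 6.85 ± 0.52 in older and 7.08 ± 1.19 in younger HMACT pools (SD, n = 6 each). The difference for Nudt19 was -0.23 (SE 0.54, limma, adjusted p = 0.980), and within the largest lot it was 0.93. Its level in younger HMACT pools ran from 5.75 to 8.58, a wider range than the 5.94 to 7.44 of the older pools. Nudt3 was at 12.41 ± 0.27 in older and 12.20 ± 0.42 in younger HMACT pools (SD, n = 6 each), a difference of 0.21 (SE 0.18, limma, adjusted p = 0.720). Within the largest lot the Nudt3 difference was 0.30. Of all 8251 genes limma called 0 between the age classes of HMACT, a share of 0%, with 564 at an unadjusted p under 0.05. The 2 older LMACT pools had 8.83 and 8.43 for Nudt19, both above the 7.44 that was the highest among older HMACT pools.

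**Figure D3:**
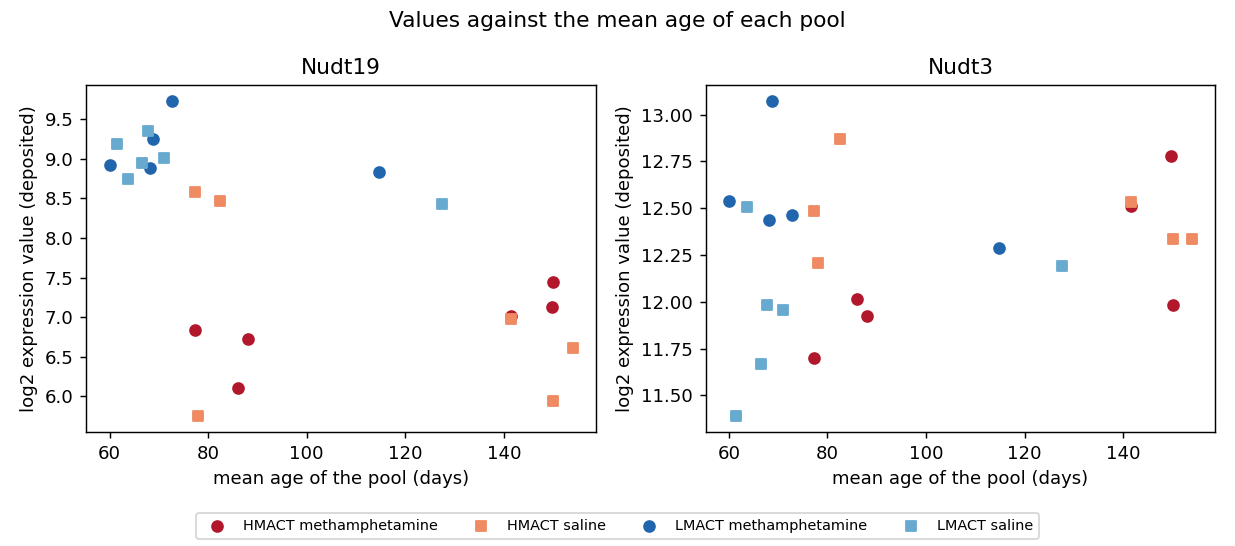
Deposited log2 expression values of Nudt19 (left) and Nudt3 (right) against the mean age of each pool in days; circles are methamphetamine and squares saline arrays. HMACT pools cluster near 80 and 150 days and LMACT pools mostly under 75 days, and the low Nudt19 values of HMACT occur at both ages.

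Of 25 genes listed for the Nudix family, 9 were measured, and among the 7 besides Nudt19 and Nudt3 limma called 0 in the comparison of lines, 1 having an unadjusted p under 0.05. The 1 was Nudt4, which encodes the nearest relative of NUDT3, another diphosphoinositol polyphosphate phosphohydrolase. Nudt4 averaged 9.92 ± 0.65 in HMACT after methamphetamine and 9.91 ± 0.53 in HMACT after saline (SD, n = 6 each). It was at 10.62 ± 0.59 in LMACT after methamphetamine (SD, n = 5) and 10.81 ± 0.13 in LMACT after saline (SD, n = 6). Its difference of HMACT minus LMACT was -0.80 (SE 0.21, unadjusted p = 0.00122, limma, adjusted p = 0.163), and a further Nudt4 probe set was above the floor on 3 arrays only. This call changed with the arrays and the fit: Nudt4 was called lower in HMACT without the 4 arrays that stood apart (-0.66, SE 0.13, limma, adjusted p = 0.0383), with the array score as a covariate (-0.43, adjusted p = 0.0363), with array weights (-0.80, adjusted p = 0.00155) and without replicate 4 of LMACT after methamphetamine (-0.92, adjusted p = 0.0498). Nudt4 therefore had a negative line difference where that of Nudt3 was 0.05. The calls of Nudt4 are to be read against the counts over all 8251 genes. Between the lines limma called 16 genes in the main fit, 830 with array weights and 76 without replicate 4 of LMACT after methamphetamine.

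The other 6 family members had small line differences. Nudt21, which encodes a subunit of the messenger RNA cleavage factor that selects polyadenylation sites, gave 0.20 (SE 0.13), and Nudt16l1, whose product binds the DNA repair protein 53BP1, gave 0.18 (SE 0.24). Nudt9, which encodes an ADP-ribose hydrolase, gave 0.02 (SE 0.15). Nudt1, which encodes the enzyme that clears oxidised purine nucleotides, gave 0.06 (SE 0.04), and Nudt5, for another ADP-ribose hydrolase, -0.03 (SE 0.02). Values of Nudt1 and Nudt5 lay close to the floor, and Nudt14, for a UDP-glucose hydrolase, was above the floor on 1 array only. The median line difference of the 7 genes was 0.06, against 0.0058 over the 6162 genes above the floor. For the mean effect of methamphetamine limma called 0 of the 7, 0 had an unadjusted p under 0.05, and their median was -0.03. Nudt9 gave -0.13 (SE 0.21) in HMACT and 0.36 (SE 0.22) in LMACT after methamphetamine, the same signs as Nudt3. The difference of these effects for Nudt9 was -0.49 (SE 0.30, limma, adjusted p = 0.860). For that contrast limma called 0 of all 8251 genes, so this result does not set Nudt9 apart from Nudt3.

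**Figure D4:**
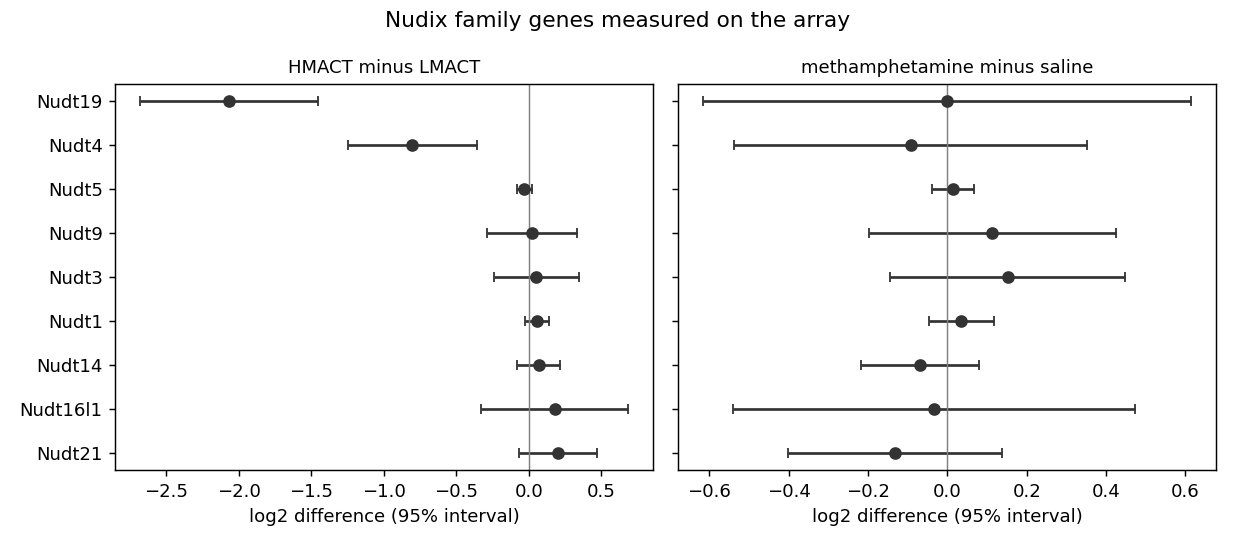
Log2 differences with 95% intervals for the 9 Nudix family genes measured, as HMACT minus LMACT averaged over injections (left) and methamphetamine minus saline averaged over lines (right). Nudt19 lies at -2.07 in the left panel, Nudt4 at -0.80 and the other 7 genes between -0.03 and 0.20. The differences of Nudt19 between lines and of Nudt3 after methamphetamine belong to the values that chose them, so their intervals are not a test.

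Genes that act with NUDT19 on coenzyme A and in the peroxisome were counted from lists of textbook members. Of 10 other coenzyme A genes on the array 9 were above the floor, limma called 0 between the lines and 3 had an unadjusted p under 0.05. Slc25a17, which encodes a peroxisomal carrier of coenzyme A and other cofactors, had -0.41 (SE 0.11), while Acot7, for an acyl coenzyme A thioesterase of brain, had 0.71 (SE 0.22) and Coasy, for the enzyme of the last steps of coenzyme A synthesis, 0.36 (SE 0.16). These differences had mixed signs, and the median of the 9 was 0.04. With array weights, under which limma called 830 of the 8251 genes, it called 4 of these, 3 higher and 1 lower in HMACT. Of 32 other peroxisomal genes 29 were above the floor, with 0 called, 10 at an unadjusted p under 0.05, 11 positive and 18 negative differences and a median of -0.06. Acaa1a, which encodes a peroxisomal thiolase of fatty acid oxidation, had -0.77 (SE 0.21), and catalase (Cat), which breaks down hydrogen peroxide, -0.18 (SE 0.05), beside the -2.07 of Nudt19. Of the peroxisomal genes, 1 was called lower in HMACT without the arrays that stood apart, Phyh, for the enzyme that starts the breakdown of phytanic acid, at -0.35 (SE 0.07, limma, adjusted p = 0.0451). With the array score as a covariate the 1 called was Acaa1a, and with array weights 7 were called, 6 of them lower. Phyh was named after its values were seen.

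Genes that act on inositol phosphates or on the messenger RNA cap were described likewise for Nudt3. Of 9 other inositol phosphate genes, all above the floor, limma called 0 for the mean effect of methamphetamine and 1 had an unadjusted p under 0.05. The smallest p-values belonged to Inpp5b, an inositol polyphosphate 5-phosphatase gene, at 0.08 (SE 0.03), Itpkb, for an inositol trisphosphate kinase, at 0.38 (SE 0.22), and Inpp1, for an inositol polyphosphate 1-phosphatase, at 0.11 (SE 0.08). The median of the 9 was 0.08, against -0.0030 over the 6162 genes above the floor. Between the lines limma called 0 of them, apart from Nudt4 under the settings given above, and besides Nudt4 the smallest p-values were those of Itpk1 at 0.47 (SE 0.24) and Impa1 at -0.22 (SE 0.15), both acting on inositol phosphates. Of 13 other decapping and decay genes 11 were above the floor, with 0 called in either comparison, and between the lines 1 had an unadjusted p under 0.05. Dcp1a, for a decapping cofactor, had -0.16 (SE 0.07), and Lsm4 and Lsm2, for subunits of the ring that binds messenger RNA tails, had 0.43 (SE 0.21) and 0.13 (SE 0.08).

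The genes beside Nudt19 and Nudt3 in the RefSeq order were examined because linked genes tend to be inherited together in selected lines. Of the 10 nearest measured genes on each side of Nudt19 on chromosome 7, 15 of 20 were above the floor and limma called 0 between the lines, 2 having an unadjusted p under 0.05. Their differences ran from -0.38 to 0.68 with a median of 0.03, so none came near the -2.07 of Nudt19. The next measured gene on one side was Slc7a9, an amino acid transporter gene at the floor on all arrays, and on the other Uri1, for a chaperone of the prefoldin family, at -0.38 (SE 0.20). Around Nudt3 on chromosome 17, 17 of 20 were above the floor, 0 were called and 6 had an unadjusted p under 0.05. Differences there ran from -0.68 to 0.82 with a median of 0.17. The genes directly beside Nudt3 were AI413582, at 0.37 (SE 0.16), and Rps10, for a protein of the small ribosomal subunit, at 0.53 (SE 0.34), against 0.05 for Nudt3. Array weights, with 830 genes called in all, gave 3 calls around each of the pair. Around Nudt19 these were Uri1 at -0.36, Cep89 at -0.13 and Etfb at 0.69. Around Nudt3 they were Rpl10a at 0.68, Uhrf1bp1 at -0.24 and Uqcc2 at 0.69. Measured neighbours can lie far apart, with 8 coding genes between Nudt19 and Uri1 and 90 between Nudt19 and Klk1b8, the last on that side.

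**Figure D5:**
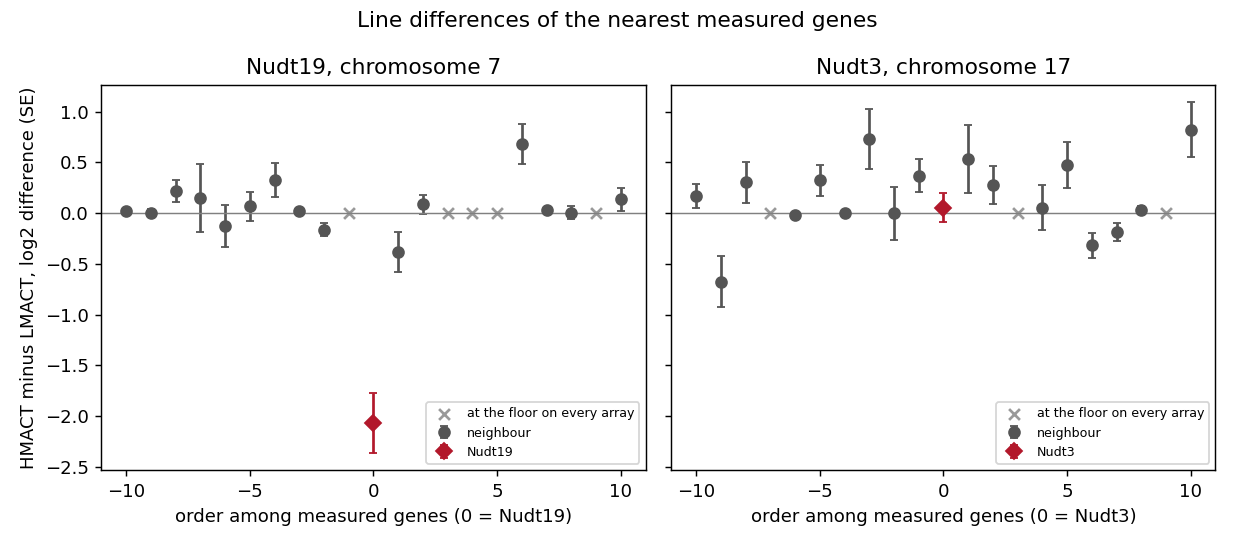
Log2 difference of HMACT minus LMACT (points, with SE) for the 10 nearest measured genes on each side of Nudt19 (left) and Nudt3 (right), by their order among measured genes on the chromosome; crosses are genes at the floor on every array. Nudt19 lies at -2.07 and its neighbours between -0.38 and 0.68.

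The genes whose values followed those of Nudt19 and Nudt3 most closely were taken from 5307 others above the floor on most arrays, by Pearson r over the 23 arrays, which share the lines and the main axis of variation. For Nudt19 the highest r were 0.77 with Ttc17, 0.76 with Med1, which encodes a Mediator subunit, and 0.74 with Acaa1a. Their differences of HMACT minus LMACT were -0.42 (SE 0.13), -0.66 (SE 0.12) and -0.77 (SE 0.21). Negative signs are likely by the choice itself, since the genes were picked by r with Nudt19 over arrays of both lines. The lowest r for Nudt19 were -0.71 with Cfl1, the gene of the actin-severing protein cofilin, -0.69 with Fam114a2 and -0.66 with Fam3a. Over deviations from the group means, where the lines no longer contribute, the highest r for Nudt19 were 0.86 with Wtap, for a subunit of the RNA methylation complex, 0.85 with Tmem183a and 0.81 with Faf1. These 3 had line differences between 0.00070 and 0.03. Wtap and Tmem183a spread most in HMACT after saline, the group where Nudt19 was split, with SDs of 0.25 and 0.32. Their SDs in the other groups were at most 0.15 and 0.13. Faf1 had an SD of 0.13 both in HMACT after saline and in LMACT after methamphetamine. The part of the split saline arrays in these r was not tested.

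For Nudt3 the highest r over the 23 arrays were 0.90 with Aldh2, which encodes mitochondrial aldehyde dehydrogenase, 0.89 with the homeobox gene Pbx2 and 0.88 with Npc2, for a lysosomal cholesterol carrier. The differences of the methamphetamine effect, HMACT minus LMACT, were -0.88 (SE 0.52) for Aldh2, -1.07 (SE 0.46) for Pbx2 and -0.79 (SE 0.41) for Npc2, beside the -0.92 (SE 0.28) of Nudt3. Genes picked by r with Nudt3 over these arrays tend to share its group pattern by that choice, so these values are description only. The lowest r for Nudt3 were -0.79 with Fbxo8, -0.76 with Canx, for the chaperone calnexin, and -0.75 with Phldb2. Over deviations from the group means the highest r for Nudt3 were 0.92 with Nr2c2ap, 0.91 with Aldh2 and 0.89 with Mtch1, so Aldh2 was near the top by both measures.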

How the data were processed

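The authors deposited 1 table of log2 expression values per probe set and array; the log2 scale was inferred from the values, which run from 2.23 to 16.4, while background correction, summary and normalization are named in no source used here. Per the submitters' processing notes, R 2.7.1 was used, with no role stated. Per the labels' protocols, biotin-labelled cRNA was hybridised. Values under 2.3 were taken as the floor, where 2089 of 8251 genes lay on every array. Signal over this floor and the number of arrays limit the precision. Of 12488 probe sets, 66 were controls, 10833 were listed with 1 gene, 396 with several and 1193 with none listed; 10817 of the 10833 matched RefSeq (GRCm38.p6) by gene identifier. Where a gene had several probe sets, the brightest on average stood for it.

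Differences were fitted in R 4.3.3 with limma 3.58.1, as 1 fit of 4 group means over 23 arrays and eBayes, two-sided, with Benjamini-Hochberg adjustment over 8251 genes and a threshold of 0.05. Older and younger HMACT pools were compared in a fit of the 12 HMACT arrays with the injection as a term. The scripts were checked on data drawn with known changes. Over all probe sets, any of the 253 pairs of arrays differed by at least 0.0736 on average, so all 23 were kept as separate arrays. Chip lots were taken from the labels, and the lot of 1 array was counted with a lot of 3. The axis of array variation was the first principal component of deviations from group means over 5308 genes. The score of an array was the projection of its values on that axis. For the score, values were centred on the mean of each gene over all arrays, so it keeps differences between groups. Arrays with scores over the median plus 3.5 median absolute deviations stood apart.

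Nudt19, Nudt3, the gene lists and the tests were chosen with earlier results of these data known. The named genes were both hydrolase genes, all other measured Nudix genes, from each function list the 3 smallest p-values where none passed the threshold, for each of Nudt19 and Nudt3 the 3 highest and 3 lowest Pearson r over arrays and the 3 highest over deviations, and the next measured genes. Replicate numbers are shared between injections within a line. Same-numbered deviations correlated between -0.618 and 0.876, and the fit with a random replicate block had a consensus correlation of 0.224. The main fit did not take same-numbered arrays as pairs and treated them as independent. Per the labels, same-numbered pools of a line were of similar mean age and came from the same chip lot, with the lot of 1 array counted as above, though no label calls a number a batch, and 5 of 6 same-number correlations in HMACT ran from 0.161 to 0.876. Alternatives were normalization, probe set and floor choices, moderation, array weights, arrays that stood apart, chip lot, pool age, replicate blocks and leaving out each array. Leaving out each array for the counts of genes, the fixed block for them, and calls within the gene lists under each alternative were added after the data were seen.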

Additional observations from a re-analysis of the deposited data

How the results depend on the processing

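No tested result of Nudt19 or Nudt3 changed its side of the threshold under any alternative run, but several values changed sign, not all of them near 0. The mean effect of methamphetamine on Nudt19 was 0.0246 after quantile normalization, 0.0797 without the arrays that stood apart, 0.46 in the largest chip lot and 0.0042 with mean age as a covariate, but -0.30 with array weights and -0.45 in pools under 100 days. With the replicate block it was 0.0043 as a random term and 0.0233 as a fixed term, and it ran from -0.13 to 0.15 when arrays were left out in turn. The difference of these effects was 0.29 in the largest lot and -1.19 in pools under 100 days. The line difference of Nudt3 was -0.0102 after quantile normalization, -0.12 with the array score as a covariate, -0.0379 with mean age and -0.0644 in pools under 100 days, and it ran from -0.0109 to 0.12 when arrays were left out. The difference of older and younger HMACT pools for Nudt19 was 0.41 with array weights, 0.0465 without the arrays that stood apart and 0.93 both with chip lot as a covariate and in the largest lot, with a range of -0.54 to 0.0880 when arrays were left out. That of Nudt3 was -0.0168 with the array score. The contrast of methamphetamine effects on Nudt3 was -0.45 in the largest lot and -1.37 in pools under 100 days. The causes were not tested. Counts of genes called between the lines ran from 1, in the largest lot, with mean age and in pools under 100 days, to 830 with array weights; the replicate block gave 4, and leaving out arrays gave 9 to 76. Counts for the mean effect of methamphetamine ran from 0 to 7, and those for the difference of effects were 0 under each alternative. The replicate block changed no call of Nudt19 or Nudt3; as a fixed term it gave -0.31 (SE 0.21) in HMACT and 0.50 (SE 0.23) in LMACT for the effect of methamphetamine on Nudt3. Between same-numbered arrays that difference was positive in 5 of 5 LMACT numbers and negative in 5 of 6 HMACT numbers, the signs the gene was chosen for.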

Other observations

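Among 5308 genes measured above the floor on most of the arrays, the SD of Nudt19 within groups, 0.71, was at the 89.0 percentile, and that of Nudt3, 0.34, was at the 45.7 percentile. The values of Nudt19 and Nudt3 had a Pearson r of 0.06 over the 23 arrays, and their deviations from the group means one of 0.25.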
